A study of Drosophila melanogaster with 15 samples.

Results

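Loss of the early endosomal syntaxin from part of the wing imaginal disc was examined at 116 h after egg deposition, by comparing 3 arrays of avl-RNAi discs with 3 arrays of control discs. These 6 of the 15 arrays of the series were taken by their titles, and 11982 genes were compared. The avl-RNAi larvae were w- and carried 1 copy each of elav-GAL80 and of a chromosome with both Rn-GAL4 and UAS Avl RNAi. The control larvae were w- and carried elav-GAL80/+ and Rn-GAL4/+ without the hairpin. Both genotypes had the w1118 background and were raised at 25 C from egg collections of 2 h to the third larval instar. The labels call the avl-RNAi discs neoplastic and the control discs wild type in form. The series also holds avl-RNAi discs at 92 h and 168 h and control discs at 92 h.

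Rn-GAL4 is driven by the rotund gene, which is active in only part of the wing disc, whereas RNA was taken from whole discs. Each value therefore mixes knockdown cells with neighbouring cells that did not express the hairpin, and with cells attached to the disc. In such bulk RNA, fewer cells of a type and less RNA per cell cannot be told apart. The elav-GAL80 transgene, a repressor of GAL4 under a neuronal promoter, was present in both genotypes. The design states that the samples of a time point were collected separately. It does not say whether they came from separate crosses, so the tests measure the spread between these samples.

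The wing disc is a larval epithelium that gives rise to the wing, its hinge and the notum. Avl, now named Syx7, is a syntaxin that lets endocytic vesicles fuse with early endosomes. In flies its loss is known to leave receptors and the apical determinant Crumbs undegraded, and to turn disc epithelia into multilayered masses that lose polarity. Such tissue is known to activate Jun kinase (JNK), to secrete Unpaired cytokines that signal through JAK/STAT, and to release Ilp8, a relaxin-like hormone that delays metamorphosis. Control larvae near the end of the third instar are normally approaching the ecdysone pulse that starts metamorphosis.

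The deposited values were log2 signals. Whole arrays correlated at 0.994 to 0.997 within the groups at 116 h and at 0.978 to 0.986 between them. The median SD over genes was 0.0924 among avl-RNAi arrays and 0.0738 among control arrays. The annotation used gave the knocked-down gene no probe set under its own name, so it was not analysed here, and neither were Mmp1, upd3 and wg. All 15 wing disc markers measured lay above the array median on every array. Their mean was 9.10 to 9.33 in avl-RNAi discs and 9.45 to 9.57 in control discs. Of the 15, 8 were called lower (53.3%, against 19.1% of all genes) and none higher. These markers include vg, nub, pnr, eyg and en, which recur among the wing disc regulators below. The mean of 14 muscle markers was 6.54 to 6.97 in avl-RNAi discs and 5.85 to 6.45 in control discs, and 7 of the 14 rose. The mean of 21 gut markers was 4.95 to 4.98 in avl-RNAi discs. Among control discs it was 6.17 in replicate 2, against 4.76 and 4.68 in replicates 1 and 3, and none of the 21 passed the test. The mean of 6 fat body markers spread over 8.43 to 9.78 in avl-RNAi discs and 7.5 to 9.21 in control discs. That of 20 haemocyte markers, which include Tig and vkg, was 6.05 to 6.94 in avl-RNAi discs and 6.08 to 6.38 in control discs.

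At 116 h the expression of a large share of the genome differed between the genotypes. Of the 11982 genes, 3794 were called at an adjusted p under 0.05 (31.7%), which is the background against which every count below has to be read. Of these, 1511 were higher (12.6%) and 2283 were lower (19.1%) in avl-RNAi discs. The lower genes were more numerous but moved less, with a median difference of -0.32 log2 units, against 0.45 for the higher genes. Among changes of at least 2-fold, 306 genes were higher (2.55%) and 163 lower (1.36%). All 3 avl-RNAi arrays lay above all 3 control arrays for 2006 genes (16.7%) and below them for 2851 (23.8%). Median centring of each array, which moved the median of all genes by -0.09, gave 1040 higher and 3322 lower genes. The share of higher genes among those called was 39.8% on the deposited scale and 23.8% after centring. With the gut, muscle and fat body markers of each array as covariates, 645 genes were higher and 635 lower. The scatter of group means shows that the most extreme genes lay far from the diagonal in both directions.

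**Figure D1:**
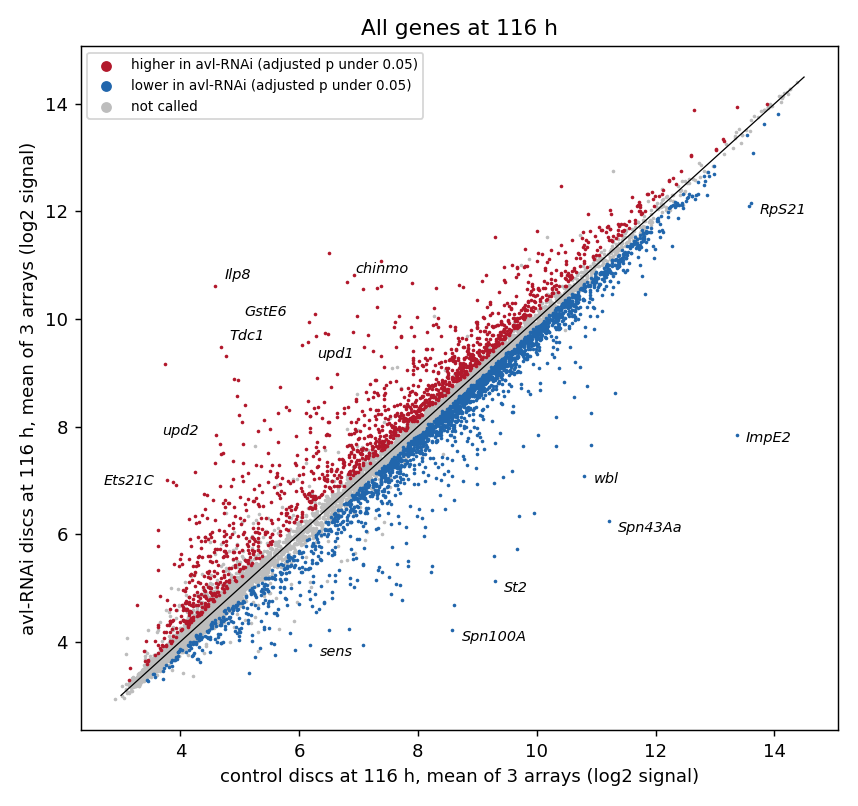
Each point is 1 of the 11982 genes, with the mean log2 signal of 3 avl-RNAi arrays at 116 h on the vertical axis and of 3 control arrays at 116 h on the horizontal axis. Red points were called higher and blue points lower at adjusted p under 0.05, grey points were not called, and the line marks equal signal. Ilp8, with means of 10.61 in avl-RNAi and 4.59 in control discs, and ImpE2, with means of 7.85 in avl-RNAi and 13.37 in control discs, mark the extremes.

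Secreted signals included the largest rise of any named gene, although the ligand list as a whole was split. Ilp8, the relaxin-like hormone of damaged discs, gave 10.81, 10.39 and 10.63 in avl-RNAi discs and 4.66, 4.51 and 4.60 in control discs. The controls were below the array median and the avl-RNAi discs above the 75th percentile, a switch shared by only CG13215 and Tdc1 among all genes, with no gene switched the other way. The difference in Ilp8 was 6.02 ± 0.16 log2 units, or 65.0-fold (SE, n = 3 each; adjusted p = 1.52e-11). The cytokine upd2 gave 7.78, 7.74 and 8.03 in avl-RNAi discs, against 4.63, 4.59 and 4.59 in control discs. Its relative upd1 gave 9.72, 9.32 and 9.7 in avl-RNAi discs, against 6.17, 6.07 and 6.22 in control discs. Pvf1, a ligand of the PDGF and VEGF receptor type, gave 8.51, 8.14 and 8.25 in avl-RNAi discs, against 5.59, 5.92 and 5.98 in control discs. For none of these 4 ligands did the groups overlap. Of the 27 stress hormones and secreted ligands measured, 6 rose and 6 fell, with a median of 0.02. Pvf2 rose by less (0.90), and Pvf3 did not pass the test (0.08). The falls included the activin-like ligand daw (-0.90), the FGF bnl (-0.32) and the tumour necrosis factor egr (-0.39). Without control replicate 2 only 3 of these ligands fell, and without control replicate 3 only 2 fell and 5 rose. The call on egr was lost without either of these arrays and without avl-RNAi replicate 3. Under the marker covariates 5 rose and none fell.

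The receptors of Eiger moved in opposite directions. Levels of wgn were 8.19, 8.31 and 8.12 in avl-RNAi discs and 9.06, 8.96 and 9.12 in control discs, a fall of 1.79-fold (adjusted p = 1.14e-07). Levels of grnd were 9.78, 9.92 and 9.75 in avl-RNAi discs and 9.47, 9.47 and 9.42 in control discs, a rise of 1.28-fold that was not called under the marker covariates. Of 13 JAK/STAT genes 7 rose and 3 fell, and 7 rose and none fell under the marker covariates. The receptor dome rose by 0.44, the phosphatase Ptp61F, an inhibitor of the pathway, by 0.61 and the cytokine-suppressor gene Socs44A by 0.35, whereas the transcription factor Stat92E missed the threshold (0.06, adjusted p = 0.601). The repressor ken, which recognises DNA sites like those of STAT, averaged 9.87 ± 0.20 in avl-RNAi discs and 8.54 ± 0.063 in control discs (SD, n = 3 each). The BTB zinc-finger factor chinmo, a STAT target and a marker of early larval identity, gave 10.98, 10.58 and 10.50 in avl-RNAi discs, against 6.84, 6.92 and 6.65 in control discs. Its 3 probe sets differed in size, between 0.41 and 4.11, but not in sign.

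In the JNK cascade 8 of 19 genes rose and 3 fell, and 5 rose and 1 fell under the marker covariates. The phosphatase puc, a target and inhibitor of JNK, gave 9.48, 9.62 and 9.88 in avl-RNAi discs, against 7.64, 7.76 and 7.73 in control discs. The AP-1 partners Jra and kay each rose by 0.56, the adaptor Traf4 by 0.94 and the inhibitor raw by 0.61. The call on kay was lost under the marker covariates, and another probe set of Traf4 differed by -0.12. The kinases were split. The upstream kinase wnd rose by 0.33 (adjusted p = 0.015), a call lost on median centring and without avl-RNAi replicate 2 or 3 or control replicate 1 or 2. The kinase bsk fell slightly (-0.22, not called under the marker covariates), and the kinase hep showed no difference (adjusted p = 0.985). Of 15 genes reported as JNK targets in discs, 12 rose and none fell, with a median of 2.05, and the same number rose under the marker covariates. Like the other lists, this list was chosen with earlier results of these data known, and it holds Ilp8. Its count and median are therefore not independent of the values. The ETS factor Ets21C gave 6.98, 6.82 and 6.97 in avl-RNAi discs, against 3.93, 3.90 and 3.96 in control discs, and all its control arrays were below the array median. The serine-protease homologue scaf gave 11.64, 11.57 and 11.40 in avl-RNAi discs, against 9.17, 9.42 and 9.29 in control discs. The bZIP factor Atf3 rose by 2.10 and the nuclear receptor ftz-f1 by 2.05, each with separated groups. The actin crosslinker cher (filamin) rose by 1.12 and the adhesion scaffold Pax (paxillin) by 1.09.

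DNA damage and apoptosis genes were called higher in 10 and lower in 5 of 30 cases, with a median of 0.04, and in 6 and 7 after median centring. Only 3 were lower without avl-RNAi replicate 1 or 3 or without control replicate 2 or 3, and under the marker covariates 6 were higher and 1 lower. The cell-killing genes grim and skl did not pass the test, with grim at 3.37 to 3.72 in avl-RNAi discs and 3.44 to 3.58 in control discs. The risers included the Ku subunits Ku80 (0.75 ± 0.071) and Irbp (0.79 ± 0.090), which bind broken DNA ends, and Irbp18 (0.95 ± 0.076), a bZIP protein. Corp, an inhibitor of p53, rose by 0.89. The brightest probe set of p53 gave 9.50, 9.22 and 9.40 in avl-RNAi discs and 8.47, 8.50 and 8.41 in control discs, whereas its other probe set differed by 0.11.

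**Figure D2:**
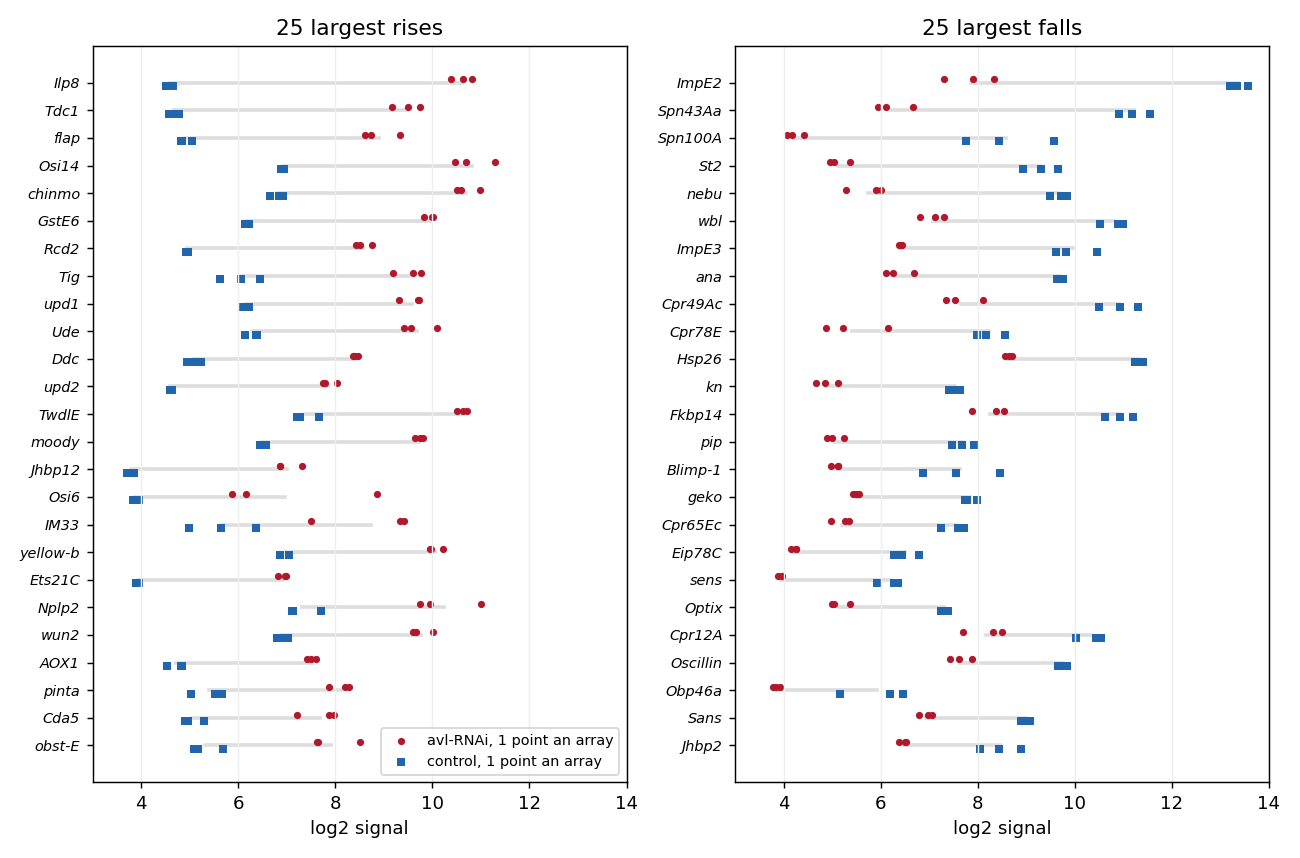
Log2 signal of every array at 116 h for the 25 named genes with the steepest rises and the 25 with the steepest falls; red circles are the 3 avl-RNAi arrays, blue squares the 3 control arrays, and the grey bar joins the group means. The groups did not overlap for any gene shown, as the rule for naming required. The spread is widest for Osi6 and IM33 among the rises and for Spn100A and Blimp-1 among the falls.

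Enzymes of amine synthesis were among the largest rises. Tdc1, the tyrosine decarboxylase used outside the nervous system, gave 9.75, 9.17 and 9.50 in avl-RNAi discs, against 4.77, 4.69 and 4.57 in control discs. Ddc, the dopa decarboxylase that supplies dopamine for cuticle hardening and pigment, gave 8.36, 8.46 and 8.40 in avl-RNAi discs, against 4.94, 5.24 and 5.10 in control discs. The differences were 4.8 ± 0.12 and 3.31 ± 0.082 log2 units, or 27.8-fold and 9.94-fold. Tdc2, the neuronal relative of Tdc1, rose by 1.13 and lay at 5.17 to 5.55 in avl-RNAi discs and 4.27 to 4.32 in control discs. The tyrosine hydroxylase ple, which makes the substrate of Ddc, stayed at 4.17 to 4.31 in avl-RNAi discs and 4.09 to 4.22 in control discs (adjusted p = 0.59). The melanisation-related yellow-b averaged 10.05 ± 0.15 in avl-RNAi discs and 6.98 ± 0.11 in control discs (SD, n = 3 each). Of these genes, the groups overlapped only for ple.

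Genes of cell-matrix adhesion mostly rose. Of 21 integrin and adhesion-complex genes 11 were higher and 2 lower, with a median of 0.33, and 9 were higher under the marker covariates. The cytoplasmic linkers were the main risers. The integrin linker rhea (talin) gave 10.78, 10.78 and 10.63 in avl-RNAi discs, against 9.30, 9.47 and 9.54 in control discs. The focal-adhesion adaptor by (tensin) rose by 1.35, the PDZ and LIM protein Zasp52 by 0.93, the actin-binding Vinc (vinculin) by 0.84 and the integrin-linked kinase Ilk by 0.56. The integrin subunits themselves were split. The alpha subunit scb gave 8.66, 8.94 and 9.03 in avl-RNAi discs, against 6.89, 7.48 and 7.52 in control discs. The alpha subunit mew fell by 0.58, and the beta subunit mys, at 9.27 to 9.71 in avl-RNAi discs and 9.11 to 9.32 in control discs, missed the threshold (adjusted p = 0.053) but passed it without avl-RNAi replicate 2 or control replicate 2. The kinase Fak fell by 0.32, a call lost without control replicate 2. Muscle also uses most of these linkers, and 7 of 14 muscle markers rose with a median of 0.56. The part of muscle RNA in these rises was not tested. In the covariate setting the 14 markers had a median of -0.02. Their own mean was a covariate there, so this small value was fixed in advance.

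Among matrix genes the integrin ligand Tig (tiggrin) stood apart. It gave 9.76, 9.19 and 9.60 in avl-RNAi discs, against 6.44, 6.06 and 5.63 in control discs, or 11.1-fold (adjusted p = 3.23e-07). Of 26 basement membrane and matrix genes 10 rose and 7 fell. Without avl-RNAi replicate 1 the counts were 11 and 4, and under the marker covariates 7 and 1. Ndg (nidogen), which crosslinks basement membrane, rose by 1.25, the perlecan trol by 0.91 and the collagen-binding SPARC by 0.88. The collagen IV chain vkg gave 9.48, 9.89 and 10.25 in avl-RNAi discs and 9.42, 9.25 and 9.08 in control discs, groups that did not overlap but lay close, and its call was lost under the covariates. The laminin chain LanA did not pass the test (0.04), and the papilin Ppn, a secreted proteoglycan, fell by 0.62. Haemocytes and fat body make much of the collagen and tiggrin of a larva. The haemocyte gene Hml varied between 6.88 and 9.17 in avl-RNAi discs and 6.77 and 7.41 in control discs and passed the test only without avl-RNAi replicate 1. Replicate 3, the avl-RNAi array with the highest haemocyte mean, also had the highest vkg, whereas Tig was highest in replicate 1. Both genes are among the markers in that mean, so neither is independent of it. The part of haemocyte RNA in these values was not tested.

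Genes of chitin metabolism rose more often than they fell. Of 40 genes of chitin synthesis and remodelling 21 were higher and 2 lower, with 25 whose avl-RNAi arrays all lay above the controls. The counts were 11 and 1 under the marker covariates. The putative deacetylase Cda5 gave 7.86, 7.21 and 7.97 in avl-RNAi discs, against 5.29, 4.90 and 4.96 in control discs. The chitin-binding protein obst-E gave 8.50, 7.62 and 7.65 in avl-RNAi discs, against 5.69, 5.17 and 5.08 in control discs. The neighbours reb and exp, which are needed for chitin deposition, rose by 2.08 and 1.20, and the chitinase Cht6 by 2.04. The tracheal deacetylases serp and verm rose by 0.74 and 0.77. The synthase kkv rose by only 0.20, and that call was lost on median centring and without control replicate 2. Cht10, a chitinase, went the other way, with 10.15, 10.60 and 10.63 in avl-RNAi discs and 11.83, 11.75 and 11.92 in control discs. The 12 tracheal markers, which include serp, verm and Osi6, had means of 7.08 to 7.43 in avl-RNAi discs and 6.69 to 6.76 in control discs, and 6 rose. Whether attached trachea contributed to the chitin genes was not tested.

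Of 24 Osiris genes, which encode membrane proteins of cuticle-making epithelia, 3 rose (12.5%) and 2 fell (8.33%), no more than the 12.6% and 19.1% of all genes. Median centring gave 3 and 4, and only 1 fell when any single array at 116 h other than avl-RNAi replicate 3 was left out. The 3 that rose were more than 2-fold higher, whereas neither fall reached 2-fold, and the steeper was Osi24 (-0.73). Osi14 gave 11.28, 10.47 and 10.69 in avl-RNAi discs, against 6.93, 6.87 and 6.95 in control discs. Its neighbour Osi15 rose by 2.45. Osi6 gave 8.85, 6.15 and 5.86 in avl-RNAi discs, against 3.95, 3.83 and 3.82 in control discs. Replicate 1 carried much of the Osi6 rise, and its call was lost under the marker covariates.

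Of 36 glutathione transferase genes, which serve detoxification, 13 rose and 7 fell. Under the marker covariates 9 rose and 1 fell, and without avl-RNAi replicate 2 or control replicate 3 the number lower was 4. GstE6 lay between 9.83 and 10.02 in avl-RNAi discs, against 6.23, 6.14 and 6.15 in control discs, while its neighbours GstE5 and GstE7 rose by 1.05 and 1.39. GstD3 rose by 2.07 and GstD2 by 2.04. Members of this family are similar in sequence and can share signal on a probe set. Of 81 cytochrome P450 genes 22 rose and 3 fell, and 11 rose and none fell under the covariates. Cyp6d2 gave 8.93, 8.87 and 9.14 in avl-RNAi discs, against 6.67, 6.77 and 6.47 in control discs. Cyp310a1 fell by 1.33, with avl-RNAi arrays spread over 7.73 to 8.84 and control arrays over 9.47 to 9.7. Redox and metal genes were split, with 12 of 38 higher and 8 lower (median 0.10), 10 and 9 after median centring, and 7 and none under the covariates. In this list the metallothionein MtnA rose by 2.38 and the transferrins Tsf3 and Tsf1 by 2.04 and 1.6. Catalase (Cat), which removes hydrogen peroxide, fell by 0.64, a call lost under the covariates.

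Among junction and membrane proteins, moody, a G protein-coupled receptor known from the glial blood-brain barrier and its septate junctions, gave 9.74, 9.64 and 9.80 in avl-RNAi discs, against 6.45, 6.57 and 6.45 in control discs. The 17 markers of neurons and glia, which include moody, had means of 5.28 to 5.36 in avl-RNAi discs and 5.09 to 5.13 in control discs, and 3 rose. Of 24 septate junction genes 5 rose and 10 fell, and of 20 adherens junction genes 3 rose and 10 fell. For the septate junction genes quantile normalization gave 9 higher and 7 lower, so the balance depended on the scaling, and without avl-RNAi replicate 1 or 2 or control replicate 3 the counts were 3 and 7. Without avl-RNAi replicate 3 and without control replicate 2 only 3 of them rose as well. Under the marker covariates 3 septate junction genes rose and 3 fell, and 2 adherens junction genes rose and 2 fell. The adhesion molecule Nrg rose by 0.55, whereas hbs and rst, immunoglobulin proteins that sort cells at contacts, differed by -1.07 and -0.77. The neighbouring lipid phosphate phosphatases wun and wun2, known for guiding germ cells, rose by 2.34 and 2.86. The adaptor insc, which orients spindles in neural precursors, rose by 2.27 and lay at 7.27 to 7.39 in avl-RNAi discs and 5.0 to 5.09 in control discs.

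Endosomal genes were of direct concern because the knocked-down gene acts on early endosomes. The ESCRT genes, which sort receptors into multivesicular bodies, mostly rose, with 13 of 20 higher and 2 lower and a median of 0.33. The changes were small but regular. ALiX gave 10.77, 10.61 and 10.66 in avl-RNAi discs, against 9.88, 9.82 and 9.89 in control discs. The ESCRT-III subunit shrb rose by 0.63 and the ATPase Vps4, which takes ESCRT-III apart, by 0.55. The ESCRT-I subunits TSG101 and Vps28 rose by 0.31 and 0.35, and the ESCRT-0 subunit Hrs by 0.34. The ESCRT-II subunit lsn fell by 0.34. Under the marker covariates 8 rose and none fell. Genes of endocytosis and the early endosome gave another count, with 4 of 33 higher and 12 lower, and 3 and 19 after median centring. The retromer subunit Vps35 fell by 0.42, the retromer subunit Vps26 fell by 0.35 and the clathrin light chain Clc fell by 0.26, and all 3 calls were lost under the covariates, which left 2 higher and 3 lower. Among the SNARE proteins of the list, the protein class of the targeted syntaxin, Snap25 rose by 1.65 while Snap29 fell by 0.63. Snap25 lay at 5.90 to 6.02 in avl-RNAi discs and 4.24 to 4.34 in control discs.

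**Figure D3:**
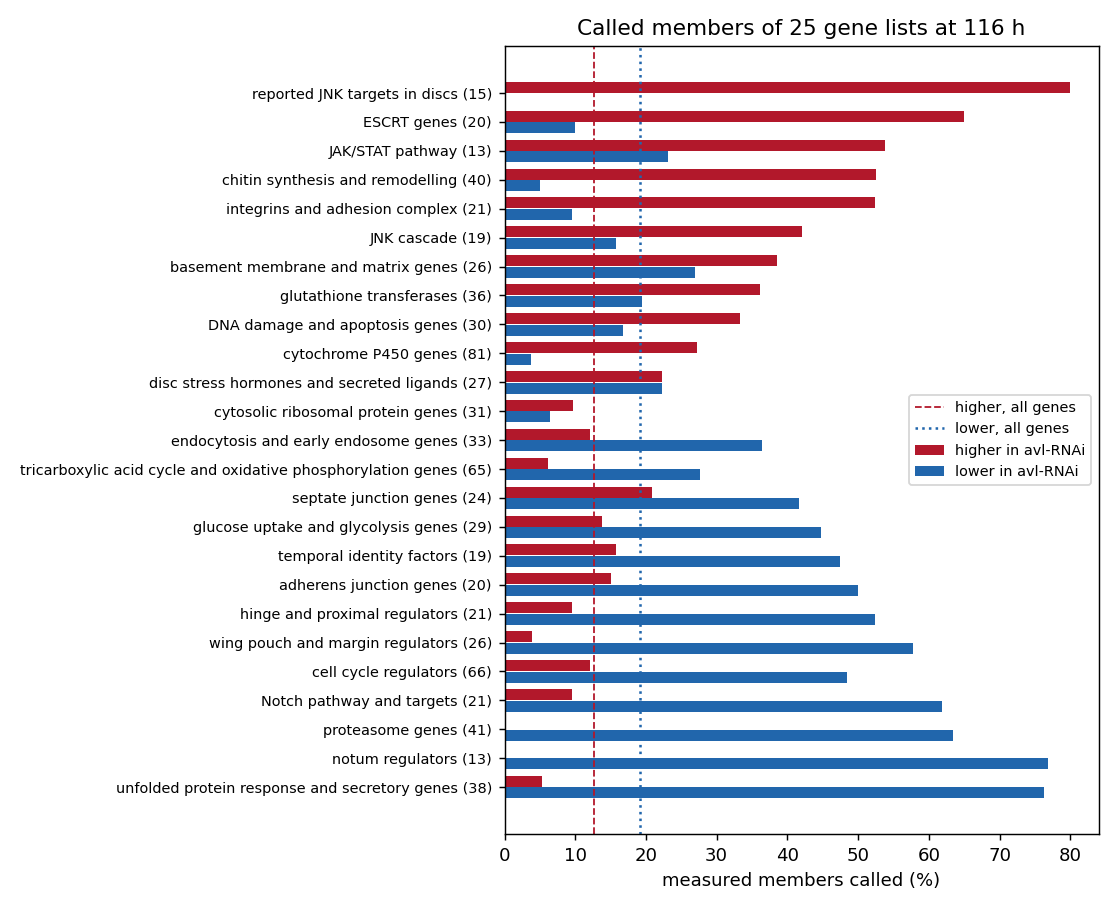
Percent of the measured members of 25 gene lists that were called higher (red) or lower (blue) in avl-RNAi discs at 116 h, with the number measured in brackets. The dashed line marks the 12.6% of all genes that were higher and the dotted line the 19.1% that were lower. Reported JNK targets and ESCRT genes stand far above the red line, and proteasome, notum and secretory genes far above the blue line. The lists were chosen with earlier results of these data known.

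The largest fall was in a gene that responds to ecdysone, although the genes of the ecdysone receptor cascade were split. ImpE2, a secreted protein induced by ecdysone as discs evert, gave 7.31, 7.91 and 8.34 in avl-RNAi discs, against 13.19, 13.35 and 13.56 in control discs. It was 45.7-fold lower in avl-RNAi discs (-5.51 ± 0.36, adjusted p = 7.49e-08). ImpE3 gave 6.43, 6.37 and 6.41 in avl-RNAi discs, against 9.62, 9.81 and 10.46 in control discs. The surface protease Sb (Stubble), which acts in disc eversion, fell by 1.97. Among nuclear receptors and their targets, Eip78C gave 4.15, 4.26 and 4.26 in avl-RNAi discs, against 6.28, 6.43 and 6.78 in control discs. Blimp-1, a repressor that times the response to ecdysone, gave 5.12, 5.12 and 4.98 in avl-RNAi discs, against 6.88, 7.55 and 8.45 in control discs. The zinc-finger factor br fell by 0.91. The receptor partners EcR and usp moved little, with EcR not called (0.19, adjusted p = 0.288) and usp at -0.22, a call lost without avl-RNAi replicate 1 or without control replicate 2 or 3. Of 20 ecdysone-inducible secreted and surface genes 6 fell and 2 rose, and the larger of these rises was 1.52. Of 22 genes of the receptor cascade 5 fell (22.7%, against 19.1% of all genes) and 4 rose (18.2%, against 12.6%). The nuclear receptor ftz-f1, given above, went the other way from Eip78C and Blimp-1, with the largest rise of the cascade (2.05). For the receptor cascade 3 fell and 3 rose without control replicate 2, and 3 fell and 2 rose under the marker covariates.

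The control arrays were not uniform in these genes. Control replicate 3 was the highest of the 3 controls in 19 of the 25 leading falls. Hr3, a nuclear receptor that follows the ecdysone pulse, gave 3.34, 3.32 and 3.43 in avl-RNAi discs and 3.32, 3.65 and 5.69 in control discs, so that only control replicate 3 stood out and the gene was not called, although it was without control replicate 1. Among the 25 leading rises avl-RNAi replicate 1 was the highest in 16.

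Secreted inhibitors and enzymes were also among the largest falls. The serpin Spn43Aa gave 5.94, 6.67 and 6.11 in avl-RNAi discs, against 10.91, 11.17 and 11.55 in control discs. Spn100A gave 4.17, 4.41 and 4.06 in avl-RNAi discs, against 7.75, 8.43 and 9.56 in control discs. The serpin family did not move together, since 7 of 28 rose and 3 fell (4 and 3 under the marker covariates), and nec, an inhibitor of the Toll pathway, rose by 1.58. The sulfotransferase St2 fell by 4.18 and the gene nebu fell by 3.94. Of the neprilysin peptidases, Nep1 fell by 1.30 and Nep2 fell by 1.5, and the serine protease Np fell by 1.37. Of 17 heat shock and chaperone genes 8 fell and 2 rose, with a median of -0.05, and 4 fell and 2 rose under the covariates. The steepest falls were in a pair of neighbouring small heat shock protein genes, with Hsp26 at 8.55 to 8.71 in avl-RNAi discs and 11.24 to 11.40 in control discs and its neighbour Hsp27 at 11.93 to 12.25 in avl-RNAi discs and 13.52 to 13.62 in control discs, whereas the chaperone partner stv (starvin) rose by 1.19. Cuticle protein genes went both ways. Of 81 CPR and larval cuticle genes 10 were higher (12.3%) and 12 lower (14.8%), no more than the 12.6% and 19.1% of all genes. Under the covariates 2 were higher and 6 lower. Cpr49Ac fell by 3.26 and Cpr49Ah rose by 2.38. The Tweedle gene TwdlE gave 10.64, 10.72 and 10.51 in avl-RNAi discs, against 7.20, 7.28 and 7.67 in control discs.

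The secretory pathway fell across most of its measured members. Of 38 genes of the endoplasmic reticulum, its stress response and vesicle transport, 29 fell and 2 rose, with a median of -0.31, and all 3 avl-RNAi arrays lay below the controls in 31. Most changes were small. The translocon subunit Sec61alpha gave 11.24, 11.39 and 11.30 in avl-RNAi discs, against 11.93, 11.91 and 12.15 in control discs. Among falls of other members, the chaperone Gp93 differed by -0.61, the chaperone Hsc70-3 by -0.50, the secreted stress factor Manf by -0.56, the lectin chaperone Cnx99A by -0.46 and the coat subunit Sec13 by -0.54. The members with large falls were wbl (windbeutel), a chaperone needed for the sulfotransferase pip (pipe), and the prolyl isomerase Fkbp14. The first of these, wbl, gave 6.80, 7.12 and 7.30 in avl-RNAi discs, against 10.52, 10.89 and 10.99 in control discs, and Fkbp14 fell by 2.65. The brightest probe set of pip fell by 2.64, while its 10 probe sets ranged between -2.64 and 0.05. The bZIP factor crc, the fly ATF4, was a riser of the list (0.38, not called under the marker covariates). Under those covariates 13 of the 38 fell and none rose.

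Proteasome genes fell by small and even amounts. Of 41 measured, 26 fell and none rose, and all 26 had their avl-RNAi arrays below the controls. The 14 paralogues marked T or R, many of which serve the male germ line, gave no call. Of the other 27, all but Pomp fell, with differences of -0.45 to -0.22 log2 units. The regulatory subunit Rpn7 gave 10.43, 10.52 and 10.41 in avl-RNAi discs, against 10.87, 10.89 and 10.95 in control discs. Rpn12 gave 11.00, 10.98 and 10.90 in avl-RNAi discs, against 11.30, 11.43 and 11.37 in control discs. The ATPase Rpt4 fell by 0.40 and the core subunit Prosalpha5 fell by 0.37. Pomp, which assembles the core, gave 10.35, 10.66 and 9.79 in avl-RNAi discs and 10.57, 10.52 and 10.45 in control discs, and was called lower only when avl-RNAi replicate 2 was left out. None of the falls reached 2-fold, and under the marker covariates 8 of the 41 fell. Cytosolic ribosomal protein genes, another abundant class, gave 3 higher and 2 lower of 31, with a median of 0.03.

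**Figure D4:**
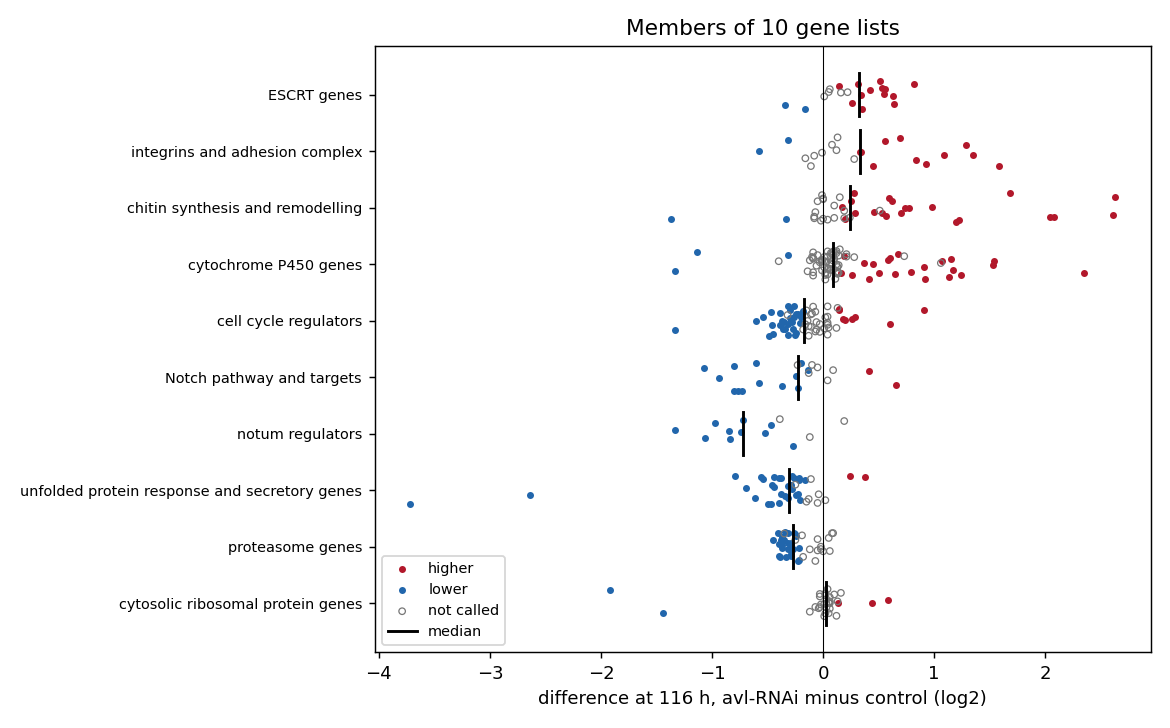
Difference at 116 h (log2, avl-RNAi minus control) of every measured member of 10 gene lists; red points were called higher, blue points lower, open points were not called, and black bars mark list medians. Proteasome members crowd between -0.45 and 0.09, notum regulators spread from -1.33 to 0.19, and secretory genes hold wbl and Fkbp14 far to the left.

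More regulators fell than rose in each of the notum, hinge and pouch lists. Of 13 notum regulators 10 fell and none rose, with a median of -0.72. The GATA factor pnr gave 6.88, 7.93 and 7.46 in avl-RNAi discs, against 8.47, 8.49 and 8.47 in control discs. The Pax factor eyg fell by 0.72, and bab2, a BTB factor also known from the leg, fell by 1.33. Of 21 hinge and proximal regulators 11 fell and 2 rose. The neighbouring T-box genes Doc1 and Doc2 differed by -1.64 and -1.65, and Doc3 fell by 1.06. Of 26 pouch and margin regulators 15 fell and 1 rose, with differences of -1.52 for the homeobox gene dve, -0.67 for the wing selector vg and -0.41 for nub. Under the marker covariates 4 notum, 5 hinge and 7 pouch regulators still fell. The list sizes are small, and the 3 shares were not compared with each other.

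Of 14 compartment and Hedgehog genes 7 fell and 2 rose, with a median of -0.24, and 1 fell and 2 rose under the marker covariates. Among single regulators with large falls, the COE factor kn (knot), which patterns the centre of the wing under Hedgehog signalling, gave 4.67, 5.12 and 4.86 in avl-RNAi discs, against 7.41, 7.58 and 7.64 in control discs. Its other, dimmer probe set differed by -0.16. Optix, a homeobox gene of the anterior wing, gave 4.99, 5.37 and 5.04 in avl-RNAi discs, against 7.27, 7.39 and 7.24 in control discs. The phosphatase and cofactor eya fell by 1.68 and the sex-determination factor dsx fell by 1.20. The ligand hh, its receptor ptc and its effector ci did not pass the test (adjusted p = 0.17, 0.781 and 0.98), while en, which defines the posterior compartment, fell by 0.34. The BMP ligand dpp, at 8.70 to 9.08 in avl-RNAi discs and 8.32 to 8.87 in control discs, also missed the threshold, which it passed without avl-RNAi replicate 1 or control replicate 2.

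Notch targets were mostly lower. Sensory organ genes were lower more often than all genes (36% against 19.1%), although 13 of the 25 were not called. All 9 genes measured in the E(spl) complex, the direct targets of Notch, fell, with differences between -1.03 and -0.23. E(spl)m6-BFM gave 4.45, 4.71 and 4.46 in avl-RNAi discs, against 5.6, 5.43 and 5.68 in control discs. In the Notch list 13 of 21 genes fell and 2 rose, and 6 fell and 1 rose under the covariates. Of 25 proneural and sensory organ genes 9 fell and 3 rose, with a median of -0.10, and 5 fell and 2 rose under the covariates. The zinc-finger factor of sensory organ precursors, sens, gave 3.89, 3.96 and 3.97 in avl-RNAi discs, against 5.92, 6.28 and 6.36 in control discs. The proneural gene sc fell by 1.03 and its neighbour ac fell by 0.73, and ase, which follows them in precursors, fell by 0.62. The adaptor insc of neural precursors, given above, went the other way, with the largest rise of the sensory organ list (2.27). The guidance cue NetB fell by 1.54 and its receptor fra fell by 0.90.

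Cell cycle genes were lower in 32 of 66 cases and higher in 8, with a median of -0.17. The repressor E2f2 gave 8.85, 8.93 and 8.88 in avl-RNAi discs, against 9.42, 9.40 and 9.44 in control discs. The kinase Cdk4 fell by 0.45, the mitotic cyclin CycB fell by 0.39 and the chromosomal passenger borr fell by 0.47. CycE, which drives entry into S phase, did not pass the test (-0.32, adjusted p = 0.289). Of 39 replication genes 7 were lower (17.9%, against 19.1% of all genes) and 3 higher, but median centring gave 15 lower and 1 higher. Median centring gave 39 lower and 2 higher of the 66 cell cycle genes, and the marker covariates gave 7 lower and 2 higher. Only 5 were higher without avl-RNAi replicate 2 or without control replicate 2 or 3.

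In insulin and TOR signalling 4 of 17 genes rose and 5 fell. The secreted insulin antagonist ImpL2 gave 10.94, 10.97 and 11.01 in avl-RNAi discs, against 9.46, 9.53 and 9.37 in control discs. The factor REPTOR, which acts when TOR is low, rose by 0.97 and the TOR effector kinase S6k by 0.77. The kinase Pdk1 gave 8.32, 8.36 and 8.46 in avl-RNAi discs, against 9.47, 9.65 and 9.68 in control discs. The amino acid transporter mnd fell by 1.41 and the receptor InR fell by 0.62. In sugar use, the trehalose transporter Tret1-1 rose by 2.00 while the glucose transporter Glut1 fell by 1.26, and 13 of 29 glucose uptake and glycolysis genes fell against 4 that rose. Only 8 of these fell without avl-RNAi replicate 3 or with the 6 arrays at 116 h alone, and 6 fell and 2 rose under the marker covariates. The opposed temporal RNA-binding proteins of the nervous system also differed, with differences of 0.91 for Imp and -0.94 for Syp.

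Fewer genes were called at 92 h than at 116 h. At 92 h 292 genes were higher (2.44%) and 245 lower (2.04%) in avl-RNAi discs, compared with 1511 and 2283 at 116 h. The change of the difference between the ages was itself called for 2175 genes (18.2%). It was called for 397 of the 469 genes that differed at least 2-fold at 116 h. These genes were chosen by the difference at 116 h, which is itself a term of that change. Their passing was therefore favoured by the choice, and their share cannot be weighed against the 18.2% of all genes. Of the 306 genes at least 2-fold higher at 116 h, 49 were also higher at 92 h, and of the 163 at least 2-fold lower, 24 were also lower. Ilp8 averaged 7.31 in avl-RNAi discs and 5.82 in control discs at 92 h. The cytokine upd2 averaged 4.51 in avl-RNAi discs and 4.61 in control discs at 92 h. For other genes the control mean moved between the ages. The factor chinmo averaged 9.40 in avl-RNAi discs and 9.51 in control discs at 92 h, and Osi14 averaged 9.03 in avl-RNAi discs and 8.97 in control discs. The control values of both genes at 116 h were lower than those at 92 h. ImpE2, Spn43Aa and wbl likewise had similar means in both genotypes at 92 h and high means only in control discs at 116 h. In avl-RNAi discs at 168 h ImpE2 averaged 12.38, Spn43Aa 10.26 and wbl 9.89.

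**Figure D5:**
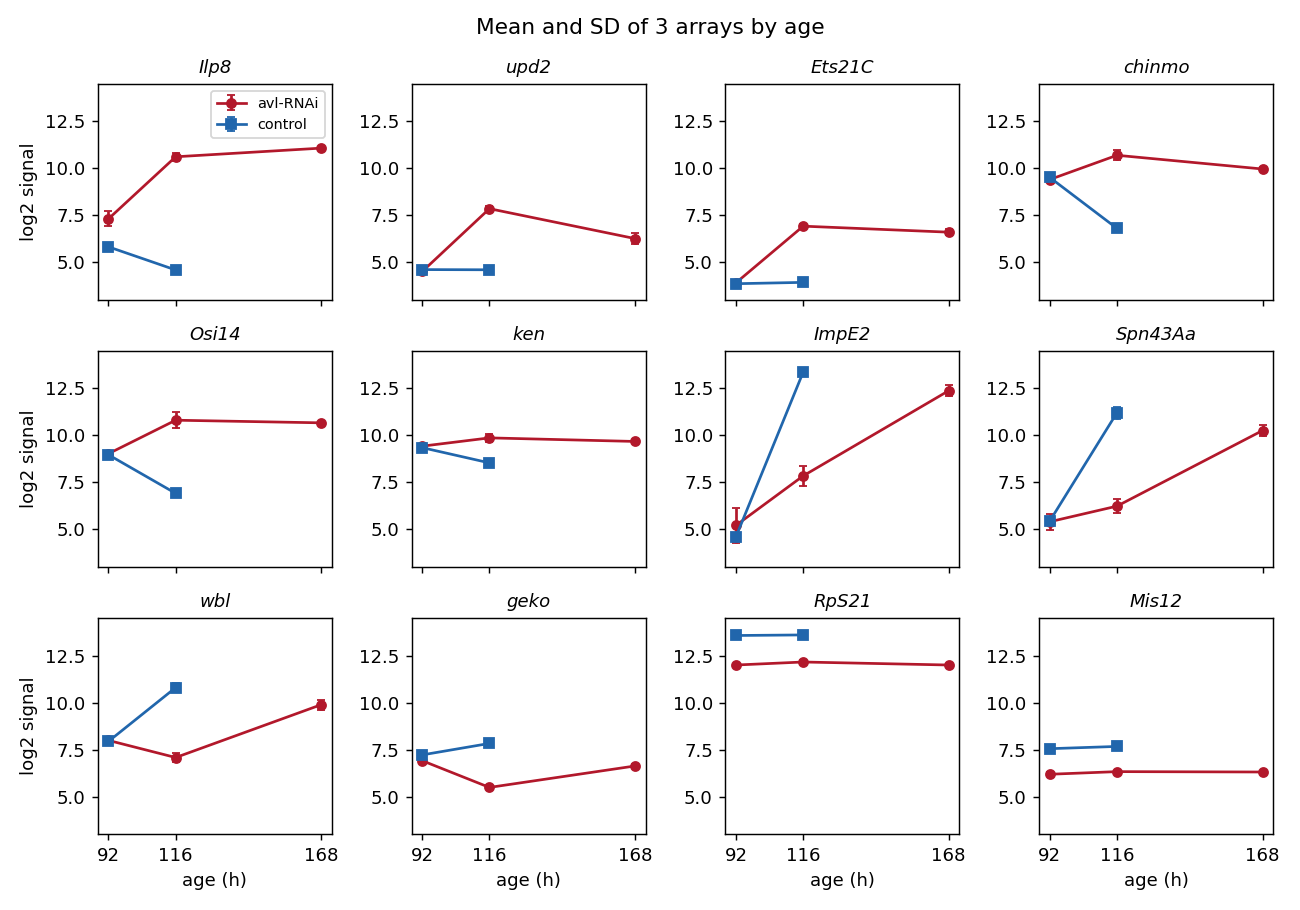
Mean log2 signal and SD of 3 arrays by age in h, with avl-RNAi discs in red at 92, 116 and 168 h and control discs in blue at 92 and 116 h. The genes upd2 and Ets21C were level with control discs at 92 h and above them at 116 h, chinmo and Osi14 had lower control means at 116 h than at 92 h, ImpE2, Spn43Aa and wbl had higher ones, and RpS21 and Mis12 were lower in avl-RNAi discs at both ages.

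A few genes were at least 2-fold apart at both ages. The genes RpS21, Mis12, Gr64a, Obp46a, RpS19b and CG4382 were at least 2-fold lower at 92 h and at 116 h. RpS21, a ribosomal protein of the small subunit, gave 12.07, 12.17 and 12.24 in avl-RNAi discs, against 13.60, 13.58 and 13.62 in control discs. Its difference at 92 h was -1.57, and the change between the ages was not called (0.13, adjusted p = 0.276). The kinetochore protein Mis12 averaged 6.33 ± 0.025 in avl-RNAi discs and 7.67 ± 0.047 in control discs (SD, n = 3 each). The 14 genes at least 2-fold higher at both ages included Ilp8, the methuselah-like receptor mthl8, the retinoid-binding pinta, swi2, MtnA, Cyp6a23, obst-E, Mlp60A and yuri. At 116 h the 3 probe sets of Mlp60A ranged from -0.1 to 1.69 and the 2 of yuri from 0.02 to 1.4. Both probe sets of mthl8 and of obst-E were higher. The change between the ages was called for Ilp8, mthl8, pinta, MtnA and obst-E and for the lower gene RpS19b. It was not called for swi2, yuri, Cyp6a23 and Mlp60A, nor for Mis12, Gr64a, Obp46a and CG4382.

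Genes known only by a number were among the most changed. CG13215 gave 8.72, 9.37 and 9.42 in avl-RNAi discs, against 3.71, 3.64 and 3.86 in control discs, or 43.2-fold. CG17124 gave 11.33, 11.02 and 11.34 in avl-RNAi discs, against 6.28, 6.43 and 6.79 in control discs. CG15279 rose by 4.54. CG3823 gave 4.51, 4.67 and 4.86 in avl-RNAi discs, against 8.27, 8.56 and 9.0 in control discs, CG9416 fell by 3.69 and CG13023 fell by 3.13. The other probe set of CG13023 differed by only -0.25, whereas both of CG17124 were higher (4.09 and 4.73). Of the 469 genes that changed at least 2-fold, 129 of the higher and 62 of the lower had no other name. Among all 11982 genes 5301 had no other name, so their share was no higher among the changed genes than among all.

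In the order of measured genes along the chromosomes, genes that changed at least 2-fold in the same direction lay next to each other in 34 runs, which held 72 genes. Unmeasured genes may lie between them, and the number of runs to be had by chance was not worked out. The longest run was CG16704, CG3513, CG16713 and IM33, all higher, although CG16704 and CG16713 lost their calls without avl-RNAi replicate 1 or control replicate 3, and CG16713 also without avl-RNAi replicate 2. Other runs were Ilp8 with beg, wun with wun2, reb with exp, Osi14 with Osi15, GstE5 with GstE6 and GstE7, and, among lower genes, Doc1 with Doc2 and Hsp26 with Hsp27. In 25 runs the genes were higher and in 9 lower. The beg gene beside Ilp8 gave 9.73, 9.22 and 9.50 in avl-RNAi discs, against 7.72, 7.60 and 7.56 in control discs. IM33, a small secreted peptide of the immune response, gave 9.41, 9.33 and 7.49 in avl-RNAi discs and 6.37, 5.65 and 4.99 in control discs. Its groups stayed apart, but the call was lost under the marker covariates, and replicate 3 of both groups was the lowest.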

How the data were processed

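Per the labels, RNA of each sample was read on a 1-colour Affymetrix array. The authors deposited normalized log2 values for 18952 probe sets. Labelling started from 200 ng of total RNA, and Partek and limma are named in the submitters' processing notes with no version or role. The background correction and normalization were not given in the sources used here, and the log base rests on the range of the numbers. The mean of every array was 6.01 and the medians were 4.74 to 4.79. With no read depth on arrays, precision rests on how many there are.

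In the platform annotation 13647 probe sets had 1 symbol, 402 had several and 4903 had none. A gene was represented by the probe set with the highest mean, which left 11982 genes, 1094 of them with several probe sets. Of 372 called genes with several, 111 had probe sets that differed in sign. Probe sets of similar family members can share signal.

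All 15 arrays entered 1 linear model per gene, with a mean for each group and 10 residual degrees of freedom (limma 3.58.1, lmFit and eBayes, R 4.3.3). The 2-sided p-values were adjusted over all genes by the method of Benjamini and Hochberg, and a gene was called at adjusted p under 0.05. Differences are avl-RNAi minus control with standard errors. The test was checked on simulated data. Same-numbered arrays at 116 h had deviations that correlated at 0.12, 0.09 and 0.18, so replicate numbers were treated as names only.

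The members and lists were chosen with earlier results of these data known, and misplaced members of the lists were taken out after values were seen. Named were the 25 largest rises and falls with separated groups, 3 rises and 3 falls among genes known only by a number, up to 6 members of each list with the smallest adjusted p, and members whose role a sentence turns on. A gene counted as switched on when its 3 avl-RNAi arrays lay above the 75th percentile and its 3 controls below the median of their arrays. Alternatives covered normalization, centring, filters, the arrays in the fit, the variance prior, array weights, tissue markers as covariates, probe set averages, the threshold and single arrays left out. No genome was used, so no sequences are shown.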

Additional observations from a re-analysis of the deposited data

Results flagged for a closer look

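The difference between avl-RNAi and control discs was itself compared between 116 h and 92 h, ages that share no array, and 2175 genes passed that test. The genes named below were chosen for a large difference at 116 h, which is 1 term of this test. Their passing was therefore favoured by the choice. All the values in this and the next paragraph are the log2 difference at 116 h minus the log2 difference at 92 h, so a positive value means that avl-RNAi discs stood higher against controls at 116 h than at 92 h. Among signals and regulators, the value was 4.53 for Ilp8, 3.37 for upd1, 3.34 for upd2, 3.99 for chinmo and 2.94 for Ets21C. Among enzymes it was 4.65 for Tdc1, 3.01 for Ddc, 3.15 for GstE6, 1.91 for AOX1 and 1.95 for Cda5. Surface and matrix genes gave 3.36 for Tig, 2.96 for moody and 2.48 for wun2. Secreted and cuticle genes gave 3.83 for Osi14, 2.96 for Osi6, 2.74 for TwdlE, 1.51 for obst-E, 2.73 for IM33, 2.44 for Nplp2 and 2.67 for yellow-b. The other leading rises gave 3.69 for flap, 3.40 for Rcd2, 3.28 for Ude, 3.16 for Jhbp12 and 1.19 for pinta. Among genes known only by a number the value was 5.40 for CG13215, 3.92 for CG17124 and 4.28 for CG15279.

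All the leading falls but Obp46a passed the same test, which their choice by the difference at 116 h favoured. Ecdysone-related genes gave -6.12 for ImpE2, -3.55 for ImpE3, -2.47 for Blimp-1 and -2.30 for Eip78C. Serpins and secretory genes gave -4.93 for Spn43Aa, -4.32 for Spn100A, -3.78 for wbl, -2.52 for pip and -2.54 for Fkbp14. Transcription factors gave -2.0 for kn, -1.61 for Optix and -2.12 for sens. Cuticle protein genes gave -3.52 for Cpr49Ac, -2.77 for Cpr78E, -2.29 for Cpr65Ec and -1.83 for Cpr12A. The remaining named falls gave -4.04 for St2, -3.77 for nebu, -3.04 for ana, -1.87 for Hsp26, -2.02 for geko, -2.02 for Oscillin, -2.14 for Sans and -1.99 for Jhbp2. Genes known only by a number gave -4.15 for CG3823, -4.02 for CG9416 and -3.20 for CG13023. Of the 25 leading falls, Obp46a is not in this list, since its value of -0.22 did not pass the test (adjusted p = 0.744).

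Of 5305 probe sets with several symbols or none, which the gene-level comparison does not use, 599 were called at 116 h (11.3%), 251 higher and 348 lower. At least 2-fold changes were found in 45 higher and 31 lower probe sets, with extremes of 4.26 and -3.48. Among the 599 called probe sets, whatever the size of their change, were 19 of the 183 control probe sets.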

How the results depend on the processing

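The fit reported above called 1511 genes higher and 2283 lower. With the gut, muscle and fat body markers of each array as 3 covariates, the number of calls was 1280 (645 higher, 635 lower), and the median standard error was 0.129, against 0.0737 without them. The cause was not tested beyond this larger error. No other setting moved these counts by more than 1.5 times. Leaving out each array in turn gave between 3229 and 3730 called genes, and the 6 arrays at 116 h alone gave 2910. Without control replicate 2 and the 92 h control replicate 3, an alternative chosen after seeing the data, 3097 genes were called. Median centring gave 1040 higher and 3322 lower. With the replicate number as a block (replicate block), 1503 genes were higher and 2223 lower. Replicate numbers were treated as names only, since not every pair correlated above 0.1. Of the 218 genes named, 201 were called, and none of these changed direction in a setting that tested it. Under the marker covariates 30 of the 201 lost their call, and 192 kept it in every setting other than the covariates and adjusted p under 0.01.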
